A study of Homo sapiens with 15 samples.

Results

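The clustered histone genes are the protein-coding genes of the replication-dependent histones H1, H2A, H2B, H3 and H4, most of which lie in clusters on chromosomes 6 and 1. Members were taken by current symbol (H1-1 to H1-6 and symbols beginning with H2AC, H2BC, H3C or H4C, older symbols HIST1H, HIST2H and HIST3H), after Ensembl identifiers were matched to symbols. The rule was met by 72 protein-coding reference genes, of which 28 had a value among the 31352 identifiers measured, and the other 44 were not analysed here. H2BC12L on chromosome 21 and H4C16 on chromosome 12 met the symbol rule and lie outside the clusters. RNA-seq had been run on 15 human libraries, 3 in each group. In 4 groups doxycycline induced the intracellular domain of a NOTCH receptor, numbered by receptor (NICD1, NICD2, NICD3 and NICD4), and the fifth group was an isogenic control with an empty vector (EV). No label gives a dose or time of doxycycline, or tells if EV cells were treated as well. The sample fields name HCT116, a colorectal carcinoma line, whereas the descriptions name U373, a glioma line. For NICD4 replicate 1 the title and description give NICD4 and other fields give NICD3, so its results are also given without it where it decides a value. Nothing in the labels says whether replicates were separate cultures, so p-values measure only the spread between these libraries, which may be technical.

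Histones package DNA into nucleosomes, in which H2A, H2B, H3 and H4 form the core and H1 binds the linker. Replication-dependent histone genes are transcribed mainly in S phase, and their mRNAs normally end at a conserved stem-loop bound by SLBP in place of a poly(A) tail. Some of these genes also give polyadenylated transcripts, mostly when a cell leaves the cycle or differentiates, and only such transcripts are kept efficiently by a library made with oligo-dT beads, as these were. The NOTCH intracellular domain acts on target genes together with the DNA-binding protein RBPJ.

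The promoters of 4 members are shown because 3 of them belong to genes that were higher in every NICD group (H1-2, H2BC5 and H2BC11) and the other belongs to a gene that was lower in 2 groups (H2AC25). Each window runs from 250 bases before to 50 bases after the start in RefSeq, 5′ to 3′ on the gene's strand. Capitals mark, on either strand, the CCAAT box, the TATA box read as TATAAA, the octamer ATTTGCAT and the core TGGGAA of the RBPJ site. Matches of the TATA box on opposite strands can overlap.
H1-2 promoter, GRCh38.p14 chr6:26056421-26056720, minus strand: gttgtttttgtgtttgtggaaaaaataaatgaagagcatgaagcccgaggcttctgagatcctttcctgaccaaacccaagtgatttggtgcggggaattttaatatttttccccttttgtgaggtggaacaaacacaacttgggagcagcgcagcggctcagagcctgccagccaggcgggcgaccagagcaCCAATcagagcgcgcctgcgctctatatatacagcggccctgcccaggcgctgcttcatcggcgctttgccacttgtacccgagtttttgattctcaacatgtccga
H2BC5 promoter, GRCh38.p14 chr6:26157871-26158170, plus strand: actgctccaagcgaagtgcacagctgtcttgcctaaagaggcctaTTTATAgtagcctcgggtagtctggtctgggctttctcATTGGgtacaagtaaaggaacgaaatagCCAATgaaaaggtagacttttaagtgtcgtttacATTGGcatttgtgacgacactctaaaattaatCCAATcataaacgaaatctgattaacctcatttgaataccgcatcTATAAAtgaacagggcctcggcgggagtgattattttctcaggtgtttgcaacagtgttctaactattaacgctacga
H2BC11 promoter, GRCh38.p14 chr6:27132746-27133045, minus strand: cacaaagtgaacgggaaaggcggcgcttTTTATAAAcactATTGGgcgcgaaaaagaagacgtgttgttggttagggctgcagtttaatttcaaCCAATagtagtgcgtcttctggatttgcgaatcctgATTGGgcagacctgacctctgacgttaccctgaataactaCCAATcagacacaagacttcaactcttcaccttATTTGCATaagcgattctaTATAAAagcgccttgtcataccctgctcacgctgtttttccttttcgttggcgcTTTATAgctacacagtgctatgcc
H2AC25 promoter, GRCh38.p14 chr1:228457824-228458123, minus strand: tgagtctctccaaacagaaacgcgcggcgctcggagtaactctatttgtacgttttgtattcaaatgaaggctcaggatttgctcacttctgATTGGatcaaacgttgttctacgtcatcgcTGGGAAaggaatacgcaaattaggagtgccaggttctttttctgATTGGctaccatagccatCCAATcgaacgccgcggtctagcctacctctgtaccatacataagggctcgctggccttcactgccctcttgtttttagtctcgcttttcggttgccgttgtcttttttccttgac
CCAAT was present in 22 of the 25 members with a promoter sequence, against 35.7% of 27305 RefSeq promoters of this length. TATAAA was in 17 of 25, against 12% of all promoters. The octamer, known as an Oct-1 site of H2B promoters, was in 11 of 25 against 1.8%. The RBPJ core was in 7 of 25, against 24.3% of all promoters, and among the 12 tested members it was in H2AC25 alone. Several H2A and H2B members start close together on opposite strands, such as H2AC11 and H2BC11, and their windows overlap. A match in the overlap is counted for both genes, so the 25 windows are not independent. A match is a match of letters and not a binding site.

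The 3′ stem-loop is shown for the tested members with an annotated transcript that contains it, and for H4C8. Capitals mark the 16 bases of the stem-loop (a stem with arms of 6 bases and a loop of 4), flanked by 5 bases on each side.
H2BC5: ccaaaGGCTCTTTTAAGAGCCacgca
H2BC4: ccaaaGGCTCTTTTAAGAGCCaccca
H2BC21: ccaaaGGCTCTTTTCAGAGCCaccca
H2AC6: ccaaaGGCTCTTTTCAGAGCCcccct
H2AC11: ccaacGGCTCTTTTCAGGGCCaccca
H2AC25: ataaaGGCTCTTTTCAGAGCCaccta
H4C8: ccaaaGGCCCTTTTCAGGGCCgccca
A stem-loop was found in a GENCODE 29 transcript of 13 of the 28 members. Transcripts with it ran on for 39 bases after it in H2BC5, 116 in H2BC4, 390 in H2AC25 and 1128 in the longest form of H2AC6. They ran on for 1729 in H2BC21 and 1761 in H2AC11. In H2BC5 and H2BC4 only the shorter annotated form (496 and 571 bases) contained the stem-loop. The longer forms (789 and 659 bases) did not. The annotated transcripts of H2BC12 and H1-2 did not contain these letters, and both are annotated with few or no bases beyond the coding part.

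Libraries held 11630195 to 27704492 reads on genes, of which 12051 over all 15 libraries lay on the 28 members. Levels are in CPM, the usual depth-relative unit of read counts, with library totals scaled by trimmed-mean factors (TMM). Changes are log2 differences ± SE from limma over all 15 libraries, fitted to log2 of the scaled count plus 1, with p adjusted by Benjamini and Hochberg over the 15122 genes tested. Rose and fell are written only of changes with an adjusted p under 0.05. All 4 comparisons share the 3 EV libraries, so they are not independent of each other. The summed level of epithelial markers was high in every group. KRT8, EPCAM and 10 others summed to 7734 to 20400 CPM in NICD libraries and 1543 to 1910 CPM in EV libraries. Only 8 of these 12 had enough reads to be tested, so the sum does not speak for each marker. Astrocyte and glioma markers summed to 48.9 to 87.4 CPM in NICD libraries and 56.6 to 59.5 CPM in EV libraries, with GFAP, the astrocyte filament gene, at 1.66 ± 0.30 CPM in EV (SD, n = 3). Of 8 tested epithelial markers, 6, 6, 7 and 6 rose and 1, 1, 1 and 0 fell in NICD1 to NICD4. Of 5 tested astrocyte and glioma markers, 1, 2, 3 and 3 rose and 2, 3, 1 and 1 fell. Among all genes, 34.6%, 28.6%, 32.5% and 35.7% rose and 40.7%, 31.1%, 36.8% and 45.2% fell. In each group 1 to 3 of the 12 epithelial and of the 11 astrocyte markers with a value had no read. The part of this marker difference in the histone results was not tested. In bulk RNA, fewer cells of a type and less RNA per cell cannot be told apart.

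Histone reads were few and concentrated on 6 genes. H2BC12, H1-2, H2BC5, H2AC6, H2AC20 and H2AC25 took 84.3% of all member reads. By class, H2B genes took 53.7%, H2A genes 21.8%, H1 genes 20.0%, H3 genes 2.72% and H4 genes 1.74% of member reads. Per kilobase of annotated exon, H2BC12 stood at 39.1 CPM, H1-2 at 13.2, H2AC20 at 7.57 and H2BC5 at 6.48, as means over all libraries. The H2BC12 exon is 381 bases in GENCODE 29, whereas the span of the gene in the deposited table is 8547 bases, so that its level per length depends on the annotation. Only 12 members had enough reads to be tested (2 H1, 4 H2A, 5 H2B and 1 H3 gene, and none of H4), and 6 members had 15 reads or fewer over all libraries.

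The summed level of the 28 members was higher in every NICD library than in every EV library. The sum was 35.5, 40.5 and 40.1 CPM in NICD1 libraries, 46.9, 41 and 49.5 in NICD2, 49.1, 43.7 and 43.9 in NICD3, 65.9, 61.1 and 57.8 in NICD4, and 32.2, 26.6 and 27.9 CPM in EV libraries. NICD4 lay above all other groups, NICD2 and NICD3 overlapped, and NICD1 lay below them. Without TMM scaling the order at the low end was lost: members took 33.2 to 38.7 CPM in NICD1 libraries and 52.9 to 57.9 in NICD4 libraries, against 34.5 to 38.6 in EV libraries. H1 genes summed to 18.4 ± 4.6 CPM in NICD4 and 4.57 ± 1.2 CPM in EV, and H2B genes to 31.3 ± 2.4 CPM in NICD4 and 15.0 ± 1.6 CPM in EV (SD, n = 3 each). H2A genes were at 9.64 ± 1.6 CPM in NICD4 and 8.09 ± 0.44 CPM in EV, with overlapping libraries.

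**Figure D1:**
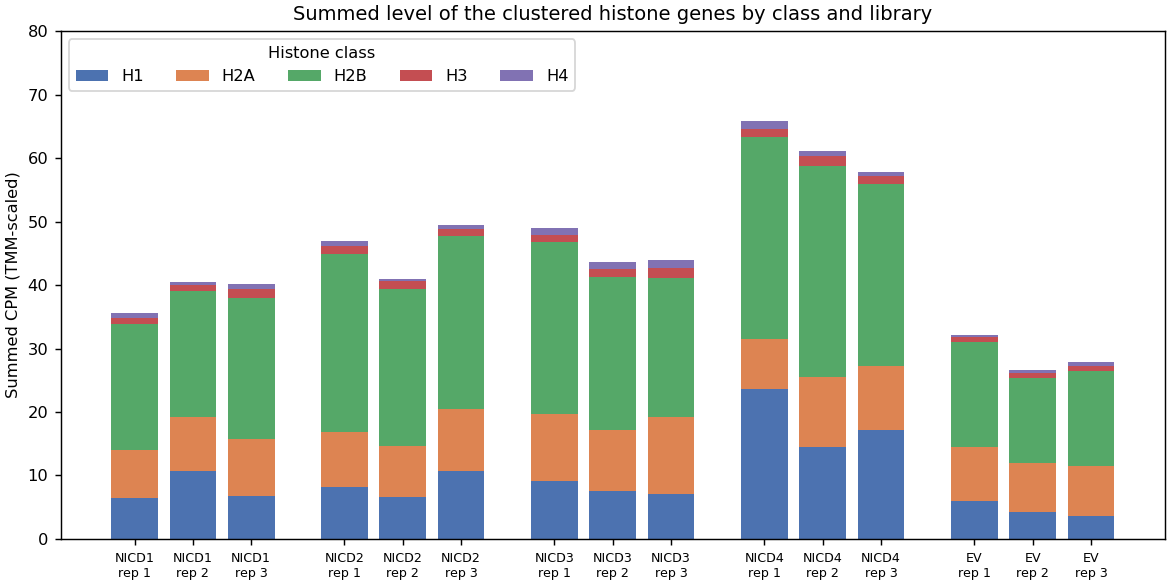
Stacked bars give, for each of the 15 libraries, the summed TMM-scaled CPM of the clustered histone genes by class (H1, H2A, H2B, H3 and H4). Totals are 57.8 to 65.9 CPM in NICD4 libraries and 26.6 to 32.2 CPM in EV libraries, and H2B (green) is the largest class in each bar.

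Of the 12 tested members, 6 rose and 1 fell in NICD1, where 34.6% of all genes rose and 40.7% fell. In NICD2, 5 rose and 0 fell, with 28.6% of all genes rising and 31.1% falling, and by unadjusted p none fell either. In NICD3, 6 rose and 0 fell, beside 32.5% and 36.8% of all genes, and here too no member fell by unadjusted p. In NICD4, 8 rose and 1 fell, beside 35.7% and 45.2%. The median change of the tested members was 0.48, 0.56, 0.53 and 1.10 in NICD1 to NICD4, and the median of all tested genes was -0.11, -0.05, -0.08 and -0.18. H2BC11 and H3C4 reached the minimum of 0.548 CPM (library totals) in no EV library and entered the test through NICD libraries alone, where they were high, so their calls give these counts no support. The other 10 tested members counted 5, 3, 4 and 6 rises in NICD1 to NICD4, with medians of 0.43, 0.46, 0.36 and 0.88. H1-2, H2BC5, H2BC11 and H2BC12 rose in all 4 groups, with losses of calls under other settings given at each gene. H2AC11, H2AC6 and H2BC4 passed the test in no group. With library totals in place of TMM scaling the balance of all genes moved: 3308 rose and 8486 fell in NICD1 (5227 and 6162 with TMM), 2847 and 6661 in NICD2 (4318 and 4696), 3014 and 8258 in NICD3 (4908 and 5559), and 3651 and 8867 in NICD4 (5393 and 6841). The members then counted 3, 4, 2 and 6 rises in NICD1 to NICD4. The median of all genes was -0.53, -0.31, -0.48 and -0.66 under that scaling, and the median member change was 0.09, 0.32, 0.14 and 0.64.

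**Figure D2:**
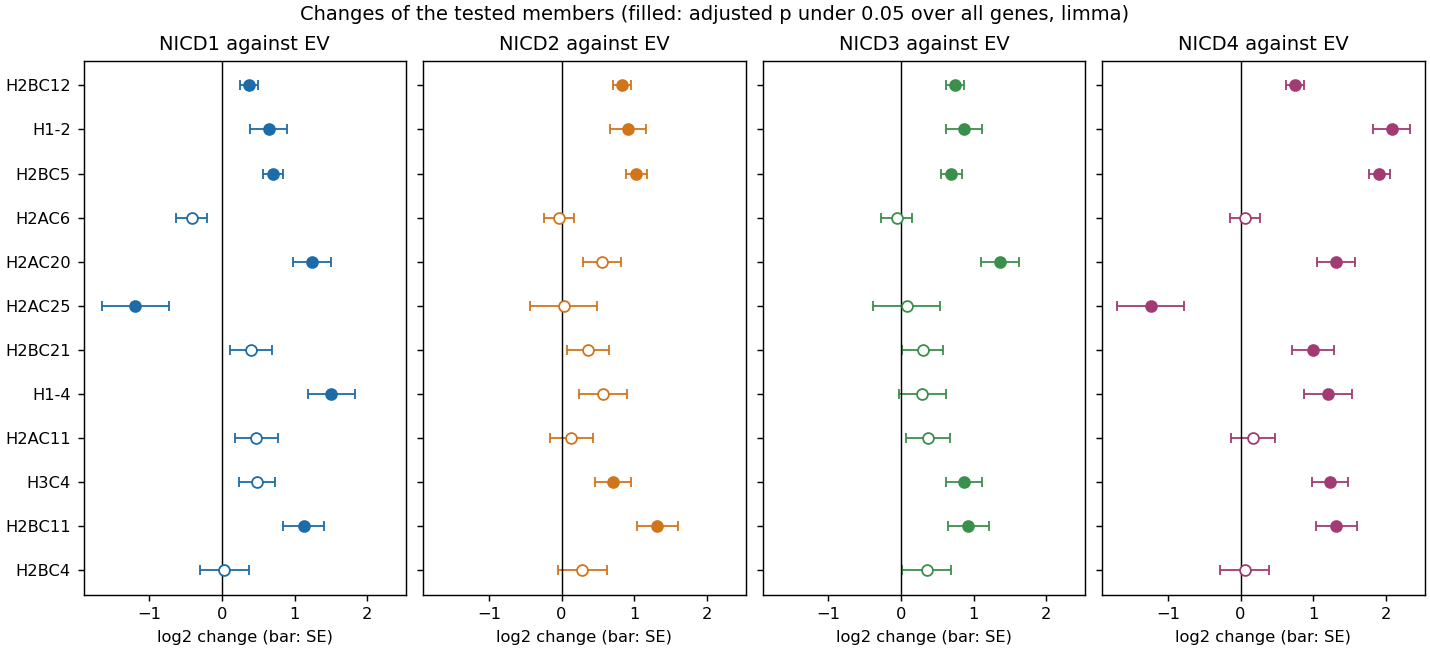
Points give the log2 change of each of the 12 tested members in each NICD group against EV, with the SE as a bar, and filled points have an adjusted p under 0.05 in limma. The filled points of H1-2 and H2BC5 reach 2.08 and 1.91 in NICD4, and H2AC25 is the only filled point below 0, in NICD1 and NICD4.

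H1-2, a linker histone gene expressed in most somatic cells (chromosome 6, 26055968 to 26056699 on GRCh37), had the largest fitted rise of the 12 tested members. It had 21.8, 13.6 and 16.0 CPM in NICD4 libraries, against 5.31, 3.78 and 3.05 CPM in EV libraries, and the lowest NICD4 library lay above every library of the other groups. Its level was 4.85, 8.53 and 5.72 CPM in NICD1, 7.25, 5.96 and 9.69 in NICD2, and 8.66, 6.82 and 6.42 in NICD3. NICD1 overlapped EV, since its lowest library was below the highest EV library. The change was 2.08 ± 0.25 in NICD4 (adjusted p = 2.8e-06, limma), 0.92 ± 0.25 in NICD2 (adjusted p = 0.0062), 0.87 ± 0.25 in NICD3 (adjusted p = 0.0069) and 0.64 ± 0.25 in NICD1 (adjusted p = 0.031). The rise in NICD1 was no longer called with NICD1 replicate 2, EV replicate 2 or EV replicate 3 left out (0.41, 0.64 and 0.49), or once the trend of all genes on GC content was removed (0.26). With library totals in place of TMM the rises in NICD1 (0.22) and NICD3 (0.47) were not called, and neither were they with a trend on exon length removed (-0.18 and 0.23).

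H1-4, another somatic linker histone gene (26156559 to 26157343), rose in 2 groups. Its level was 1.64, 2.17 and 1.04 CPM in NICD1 and 1.79, 0.90 and 1.21 CPM in NICD4, against 0.595, 0.409 and 0.547 CPM in EV. Both groups lay wholly above EV, by 1.50 ± 0.33 in NICD1 (adjusted p = 0.00077, limma) and 1.21 ± 0.33 in NICD4 (adjusted p = 0.0034). NICD2 (0.57 ± 0.33) and NICD3 (0.29 ± 0.33) overlapped EV and were not called, but NICD2 was called with its replicate 2 left out (0.87). With the GC trend removed the rise was 0.97 and called in NICD1, and 0.48 and not called in NICD4. The NICD4 call was also lost with the length trend removed (0.48). NICD1 exceeded both of them, with H1-4 lower by 0.93 in NICD2 than in NICD1 (log2 difference -0.93 ± 0.33, adjusted p = 0.038) and by 1.21 in NICD3 (-1.21 ± 0.33, adjusted p = 0.040). Of the remaining H1 members, H1-5 and H1-6, the testis linker histone gene, had 1 read each over all libraries.

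H2BC5 (26158349 to 26171577), a core H2B gene with known polyadenylated transcripts, rose in every group and most in NICD4. It had 12, 10.9 and 9.03 CPM in NICD4 libraries, 4.37, 4.33 and 4.95 in NICD1, 5.32, 5.76 and 6.08 in NICD2, 4.96, 4.03 and 4.59 in NICD3, and 3.16, 2.39 and 2.81 CPM in EV. No NICD library overlapped EV, and NICD4 stood apart from the rest. The changes were 1.91 ± 0.14 in NICD4 (adjusted p = 3.2e-08, limma), 1.03 ± 0.14 in NICD2 (2.9e-05), 0.70 ± 0.14 in NICD1 (0.00043) and 0.69 ± 0.14 in NICD3 (0.00059). Removing the GC trend left them at 2.04, 1.03, 0.74 and 0.70, whereas removing a trend on exon length left 1.24, 0.68, -0.018 and 0.11, of which those in NICD1 and NICD3 were no longer called. With library totals the changes in NICD1 (0.28) and NICD3 (0.29) also lost their calls.

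H2BC12 (27106073 to 27114619), the member with the most reads, rose by under 1 on the log2 scale in each group. It had 12.2, 12.6 and 14.0 CPM in NICD1, 19.7, 16.4 and 17.4 in NICD2, 18.2, 17.3 and 14.8 in NICD3, 15.3, 19.3 and 16.2 in NICD4, and 11, 8.72 and 10.2 CPM in EV. All NICD libraries were above all EV libraries. Changes were 0.37 ± 0.12 in NICD1 (adjusted p = 0.013, limma), 0.83 ± 0.12 in NICD2 (5.4e-05), 0.74 ± 0.12 in NICD3 (9.6e-05) and 0.76 ± 0.12 in NICD4 (4.8e-05). With the GC trend removed, the value was 0.53 and still called in NICD2, 0.25 and not called in NICD3, and below 0 in NICD1 (-0.24) and NICD4 (-0.068). With the length trend removed it was called lower in NICD1 (-0.62) and not called in NICD3 (0.021) and NICD4 (-0.22). With library totals in place of TMM it was -0.055 in NICD1 and 0.27 in NICD4, neither of them called, and the NICD1 call was also lost without NICD1 replicate 3 or EV replicate 2 (0.31 each). H2BC12 shares 74.1% of its 50-base stretches with other genes of the annotation, so its reads could have been split or dropped in counting.

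H2BC11 (27094058 to 27100541), a core H2B gene, was near the lower limit of the test, with 4 to 17 reads per library. It reached the minimum in 5 NICD libraries and in 0 EV libraries, so it was tested only because of the libraries where it was high. It had 0.615, 0.542 and 0.495 CPM in NICD1, 0.532, 0.568 and 0.840 in NICD2, 0.439, 0.458 and 0.523 in NICD3, 0.714, 0.771 and 0.466 in NICD4, and 0.183, 0.189 and 0.313 CPM in EV. Every NICD library was above every EV library. Its rises were 1.12 ± 0.28, 1.32 ± 0.28, 0.93 ± 0.28 and 1.32 ± 0.28 in NICD1 to NICD4 (adjusted p = 0.0022, 0.0011, 0.0088 and 0.00051, limma), and removing the GC trend left them at 1.13, 1.30, 0.90 and 1.40. The NICD3 call was lost with library totals (0.59), and the calls in NICD1 and NICD3 were lost with the length trend removed (0.43 and 0.36). Its transcripts have a GC content at the 52.3 percentile of tested genes.

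H2BC21 (chromosome 1, 149856010 to 149858232), known to be polyadenylated in differentiated cells, rose in NICD4. It had 2.59, 1.28 and 1.96 CPM in NICD4 and 1.05, 1.01 and 0.704 CPM in EV, groups that did not overlap (1.00 ± 0.29, adjusted p = 0.0048, limma). With library totals the change was 0.53 and not called. In NICD1 to NICD3 the changes were 0.40, 0.37 and 0.30, each with SE 0.29, and did not pass. H2BC4 (26115129 to 26124154), with 3 to 16 reads per library, changed by 0.03 to 0.35 with SE 0.34 and overlapped EV in every group. Its interval is wide, so a small change was not detectable at this depth.

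**Figure D3:**
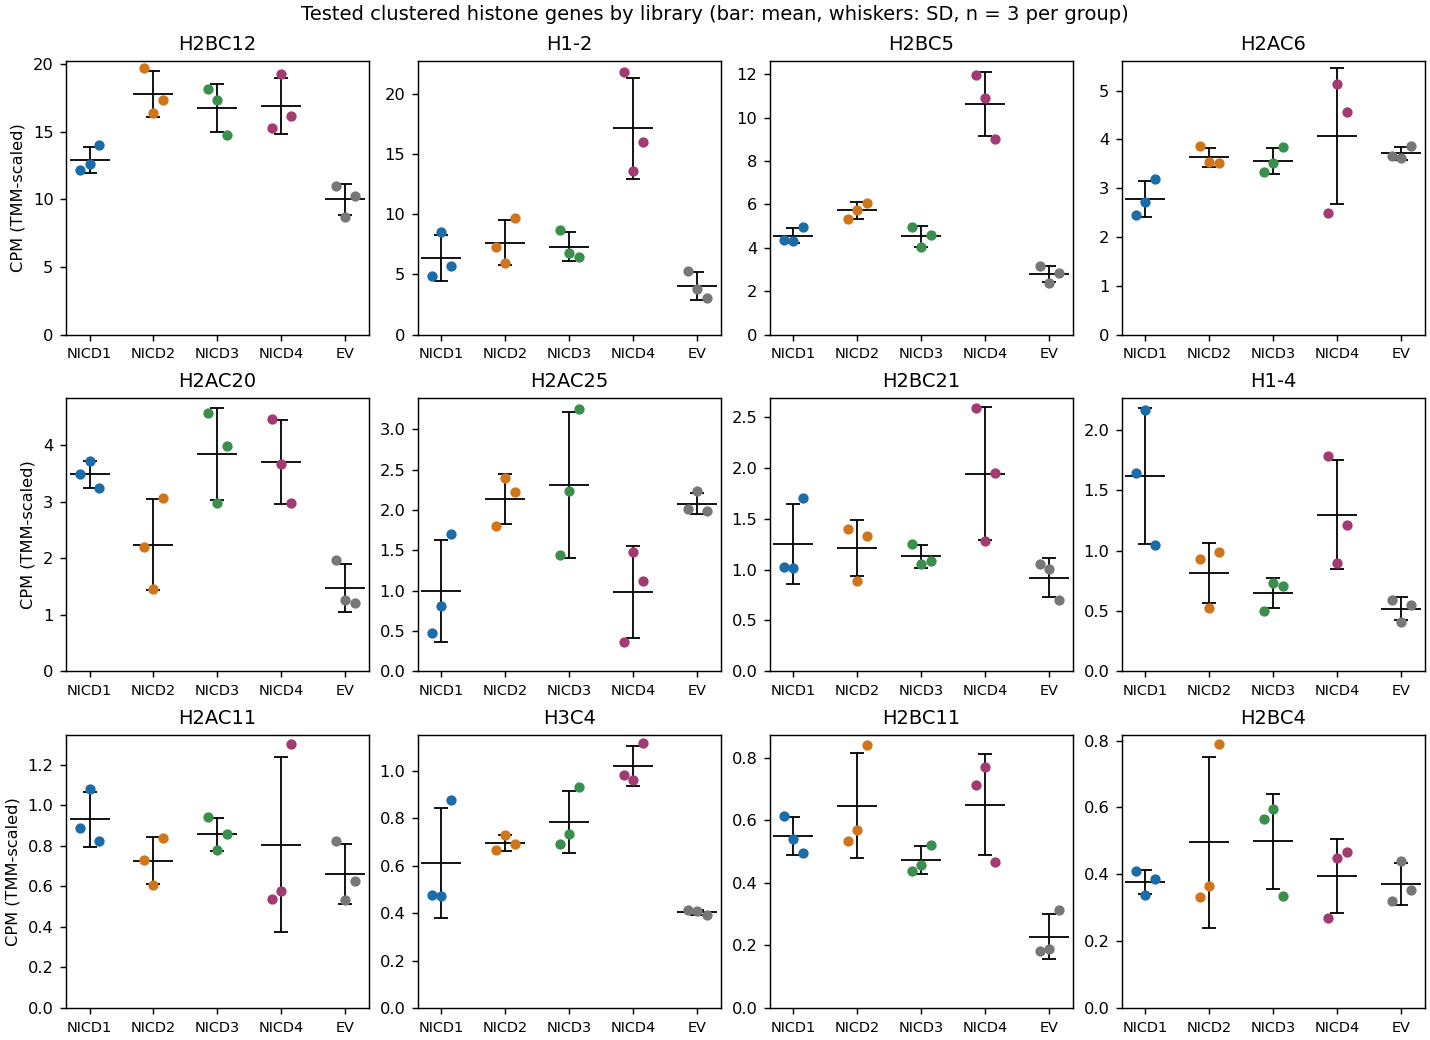
Each panel shows a tested member with the TMM-scaled CPM of every library as a point and the mean and SD of the 3 libraries of a group as a bar with whiskers, for NICD1 to NICD4 and EV. NICD4 points of H1-2 (13.6 to 21.8 CPM) and H2BC5 (9.03 to 12 CPM) lie above all other points of their panels, and H2AC25 in NICD1 and NICD4 lies below EV.

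Among the H2A genes, H2AC20 rose in 3 groups, H2AC25 fell in 2, and H2AC6 and H2AC11 passed in none. H2AC20 (chromosome 1, 149858525 to 149858961) had 3.48, 3.72 and 3.24 CPM in NICD1, 4.58, 2.97 and 3.99 in NICD3, 4.46, 3.66 and 2.98 in NICD4, and 1.97, 1.26 and 1.21 CPM in EV, with no overlap. It rose by 1.24 ± 0.26, 1.36 ± 0.26 and 1.31 ± 0.26 in these 3 groups (adjusted p = 0.00061, 0.00034 and 0.00031, limma). NICD2, at 2.20, 1.46 and 3.06 CPM, overlapped EV (0.55 ± 0.26, adjusted p = 0.081), and was called without NICD2 replicate 2 (0.85) or EV replicate 1 (0.80). H2AC20 lies within BOLA1, which had 7582 reads and rose in all 4 groups by 1.28, 0.75, 1.02 and 0.86 in NICD1 to NICD4. Reads of the overlap could belong to either gene, and use of strand in counting is not given in the sources used here. H2AC20 also shares 30.5% of its 50-base stretches with other genes of the annotation. With the GC trend removed, H2AC20 changed by 0.52, 0.79 and 0.34 in NICD1, NICD3 and NICD4, and the last was not called. With the length trend removed, its changes in NICD1 (0.25) and NICD4 (0.34) were not called.

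H2AC25 (chromosome 1, 228645065 to 228645560), a core H2A gene of the small cluster far along the long arm, was the member that fell. It had 0.478, 0.812 and 1.70 CPM in NICD1 and 0.357, 1.48 and 1.12 CPM in NICD4, against 2.01, 2.24 and 1.99 CPM in EV. Both groups lay below EV but were spread widely. The falls were -1.19 ± 0.46 in NICD1 (adjusted p = 0.030, limma) and -1.24 ± 0.46 in NICD4 (adjusted p = 0.023). In NICD2 (0.03 ± 0.46) and NICD3 (0.08 ± 0.46) the libraries spread around EV. Single libraries decided the calls: without NICD1 replicate 1 the change in NICD1 was -0.79, and without NICD4 replicate 1, the library with disagreeing labels, the change in NICD4 was -0.67, neither of them called. The NICD1 call was also lost without NICD1 replicate 2 or any of the EV libraries, and the NICD4 call without EV replicate 2. With the GC trend removed the falls were -1.59 and -1.76, and both were called.

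H2AC6 (26124373 to 26139336) had 2.46, 2.71 and 3.19 CPM in NICD1 and 3.66, 3.62 and 3.87 CPM in EV, which did not overlap, but the change of -0.42 ± 0.21 did not pass (adjusted p = 0.083, limma). In NICD2, NICD3 and NICD4 it changed by -0.03, -0.06 and 0.06 with SE 0.21. Without NICD4 replicate 1, at 2.50 CPM against 5.14 and 4.56 in the other NICD4 libraries, 2 changes passed: -0.42 in NICD1 and 0.38 in NICD4. It has the lowest GC content of the tested members, at the 17.9 percentile of tested genes, and with the GC trend removed its change in NICD4 was 0.85 and called. H2AC6 was called lower in NICD1 with library totals (-0.84), and in NICD1 and NICD3 with the length trend removed (-0.89 and -0.52). H2AC11 (27100832 to 27103070) changed by 0.47, 0.14, 0.37 and 0.18 with SE 0.30 in NICD1 to NICD4, and none passed.

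Several H2A and H2B genes lie head to head, and 3 such pairs had both genes tested. H2BC11 and H2AC11 start 290 bases apart on opposite strands, so that the printed H2BC11 promoter covers most of the H2AC11 promoter as well. H2BC11 rose in all 4 groups and H2AC11 in none, and the reads of H2BC11 per read of H2AC11 were 0.727, 0.933 and 1.00 in NICD2 libraries, against 0.222, 0.353 and 0.500 in EV libraries. NICD2 lay above EV in this ratio, whereas NICD1 (0.500 at the lowest), NICD3 (0.467) and NICD4 (0.357) touched or overlapped it. H2BC11 was tested only because of the NICD libraries where it was high. Its calls and this ratio therefore give no support to a difference between the partners, which was not tested. For H2BC21 and H2AC20, 292 bases apart, H2AC20 rose in NICD1, NICD3 and NICD4 and H2BC21 in NICD4. H2BC4 and H2AC6, 218 bases apart, passed in no group.

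H3C4 (26197068 to 26199521), which encodes H3.1, was the only tested H3 gene, with 7 to 25 reads per library. It reached the minimum in 10 NICD libraries and in 0 EV libraries, so it too was tested only because of the libraries where it was high. Its level was 0.982, 0.964 and 1.12 CPM in NICD4, 0.690, 0.732 and 0.933 in NICD3, 0.666, 0.730 and 0.692 in NICD2, 0.478, 0.474 and 0.879 in NICD1, and 0.412, 0.409 and 0.391 CPM in EV. All NICD libraries were above EV. It rose by 1.23 ± 0.25 in NICD4 (adjusted p = 0.00035, limma), 0.86 ± 0.25 in NICD3 (0.0066) and 0.71 ± 0.25 in NICD2 (0.024), and its change of 0.48 ± 0.25 in NICD1 did not pass (0.091). The NICD2 call was lost without NICD2 replicate 2 (0.70), NICD2 replicate 3 (0.71) or EV replicate 3 (0.72). No rise of H3C4 was called once the GC trend was removed (0.37, 0.32 and 0.31 in NICD2, NICD3 and NICD4) or the length trend was (0.32, 0.15 and 0.28), and with library totals the calls in NICD2 (0.48) and NICD3 (0.50) were lost. Every 50-base stretch of H3C4 (100%) occurs in another annotated gene, so the count of this gene alone is uncertain.

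The other 16 members were too low to enter the test. H2BC15 had 120 reads over all libraries (3 to 17 in each), H3C12 117, H2BC18 76, H4C11 73, H4C3 50, H2AC21 36, H2BC26 31, H4C16 24 and H3C13 16. None of these was called in any group when every gene with at least 1 read was tested. H4C8, an H4 gene, had 9, 11 and 10 reads in NICD3 and 6, 4 and 4 in NICD4, 2 in each NICD1 and NICD2 library, and 1, 5 and 1 in EV. In that fit without a minimum, H4C8 rose in NICD3 (2.07 ± 0.42, adjusted p = 0.00049, limma) and NICD4 (1.77 ± 0.42, adjusted p = 0.0014). NICD3 did not overlap EV in CPM, nor did NICD4. H4C8 reads were nevertheless only 63 over all libraries. In the same fit H2BC1, the testis H2B gene, was lower in each NICD group, where it had no read, against 2, 1 and 2 reads in EV. That is a difference of 5 reads in all. H3-4, H2AC1 and H2BC12L had 1 read each.

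Between the NICD groups, 6 of the 12 members differed by the F-test over the 4 groups (H1-2, H1-4, H2AC20, H2AC25, H2BC12 and H2BC5), beside 68.1% of all genes. H2BC5 had the smallest adjusted p of them (2.7e-05, limma). H1-2 and H2BC5 were higher in NICD4 than in each other group, H1-2 by 1.43, 1.16 and 1.21 (SE 0.25, adjusted p = 0.0012, 0.0012 and 0.0018) and H2BC5 by 1.21, 0.88 and 1.22 (SE 0.14, adjusted p = 4.1e-05, 0.00015 and 3.8e-05) against NICD1, NICD2 and NICD3. NICD4 against NICD1 called 4 members, all higher (H1-2, H2BC12, H2BC5 and H3C4), beside 28.4% of all genes called. NICD4 against NICD2 called 3 higher (H1-2, H2AC20 and H2BC5) and H2AC25 lower, beside 63.9%. NICD4 against NICD3 called H1-2, H1-4 and H2BC5 higher and H2AC25 lower, beside 49.5%. NICD2 against NICD1 called H2BC12 higher and H1-4 lower, beside 36.9%. NICD3 against NICD1 called H1-4 lower, beside 6.64% of all genes. NICD3 against NICD2 called 0 members beside 15% of all genes, and by unadjusted p 2 members were below 0.05, H2AC20 (0.81 ± 0.26, adjusted p = 0.052, limma) and H2BC5 (-0.34 ± 0.14, adjusted p = 0.12).

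Across all genes the change in each comparison rose with transcript GC content and fell with exon length. Over 5 equal bins of GC content, the median change of all genes was -0.94 in the lowest and 0.92 in the highest bin in NICD4, -0.70 and 0.68 in NICD1, -0.56 and 0.54 in NICD3, and -0.36 and 0.35 in NICD2. Of 5 such bins of exon length, the shortest had a median change of 0.55, 0.31, 0.46 and 0.48 in NICD1 to NICD4. All tested members are short in GENCODE 29, between the 0.916 and 17.9 percentile of exon length. H2AC20, H3C4, H2BC12 and H1-4 are GC-rich there, at the 92.3, 91, 87.7 and 84.5 percentile. The annotation used in counting is not given and can differ. H2BC12 has 381 exon bases in a deposited span of 8547, and H3C4 411 in 2454. H2AC25 has 895 exon bases, more than its deposited span of 496. The removals below rest on the GENCODE 29 values. With the GC trend removed, 4, 4, 4 and 5 of the 12 members rose in NICD1 to NICD4, beside 34.7%, 29.9%, 33% and 37% of all genes. With the length trend removed, 1, 4, 1 and 4 rose, beside 35.8%, 30%, 33.8% and 38.3%. With both removed, 0, 2, 0 and 5 rose, beside 34.4%, 29.8%, 32.6% and 37%, while 5, 0, 2 and 3 fell, beside 35.2%, 28%, 32.3% and 37.5%. H2BC11 is among the rises in all 4 groups with the GC trend removed. It is also among those in NICD2 and NICD4 with length or both removed. Since H2BC11 entered the test through NICD libraries alone, its calls give these counts no support. H3C4 is not among these rises. The removals on length were chosen after seeing the data, and histone genes are themselves among the shortest genes. Of 27 member changes called, 5 kept their call in every alternative that tested them. These were H2BC5 and H2BC11 in NICD2 and NICD4, and H1-2 in NICD4. H2BC11 was too low to be tested under a minimum of 2 CPM, so its calls were not checked there. In NICD4 it was also too low to be tested when only the groups compared were fitted.

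**Figure D4:**
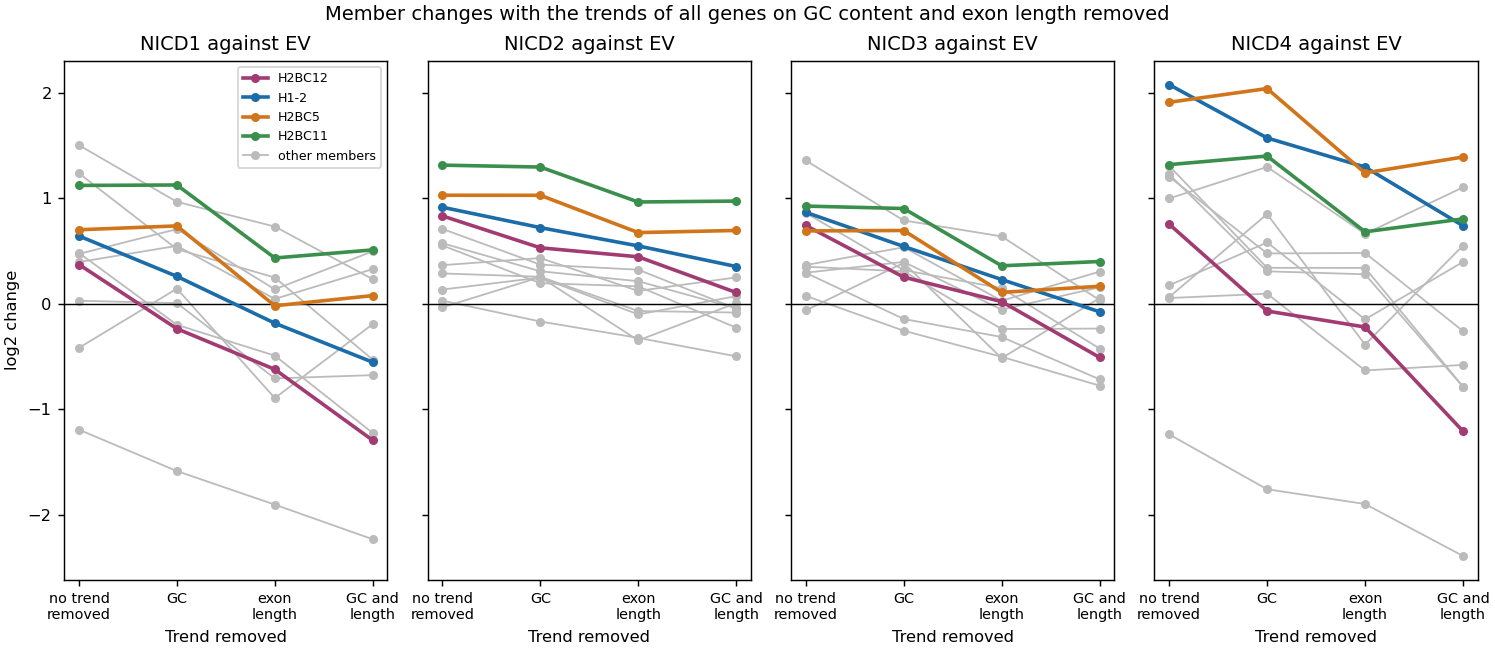
Lines join the log2 change of each tested member in a NICD group against EV without removal of a trend, and with the trend of all genes on GC content, on exon length or on both removed. H1-2 and H2BC5 stay above 0 throughout in NICD4 (0.74 and 1.39 with both removed), whereas H2BC12 drops below 0 in NICD1 and NICD4, and in NICD3 with both removed (-0.51).

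Among the 6 members known to give polyadenylated mRNA, 3 rose in NICD1, NICD2 and NICD3 each and 4 in NICD4, beside 34.6%, 28.6%, 32.5% and 35.7% of all genes. H1-2, H2BC5 and H2BC12 rose in all 4 groups and H2BC21 in NICD4, whereas H2AC6 and H2BC4 passed in none. RNAs of other classes that lack a poly(A) tail, such as small Cajal body RNAs, were read beside them. Of that list, 11 had a value and 1 was tested, and NICD1 libraries summed to 0.683 to 1.08 CPM, against 1.58 to 2.15 CPM in EV libraries. The range was 1.42 to 2.00 for NICD2, 1.13 to 1.83 for NICD3 and 1.67 to 2.42 for NICD4. NICD1 lay below EV and the other groups overlapped it. SCARNA9, the tested one, changed by -0.84 to 0.48 and did not pass.

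Of 15 genes that act on the transcription of replication-dependent histone genes, 4 rose and 10 fell in NICD1, 1 and 6 in NICD2, 4 and 9 in NICD3, and 4 and 10 in NICD4, with medians of -0.50, -0.27, -0.38 and -0.76. Among all genes, too, falls outnumbered rises in each group (34.6% rose and 40.7% fell in NICD1, 28.6% and 31.1% in NICD2, 32.5% and 36.8% in NICD3, and 35.7% and 45.2% in NICD4). NPAT, the coactivator at histone loci, averaged 10.8 ± 1.4, 8.16 ± 1.1, 11.7 ± 0.88 and 9.09 ± 1.8 CPM in NICD1 to NICD4 and 15.3 ± 1.3 CPM in EV (SD, n = 3 each), and fell in all 4 (-0.50, -0.90, -0.38 and -0.76, SE 0.15, adjusted p at most 0.035 in limma). CASP8AP2 (FLASH), which joins transcription and 3′ processing, fell, with changes of -1.98, -1.82, -1.91 and -2.13 (SE 0.29). CDK2, whose kinase with cyclin E activates NPAT, fell in all 4 (-1.03 to -0.59 in NICD1 to NICD3 and -1.28 in NICD4), as did CCNE2, while CCNE1 rose by 0.33 to 0.55. HINFP, an activator of H4 genes, rose in NICD1, NICD3 and NICD4 (0.47, 0.54 and 0.54).

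For 3′ processing and decay of histone mRNA, 8 rose and 10 fell of 23 in NICD1, 6 and 8 in NICD2, 7 and 10 in NICD3, and 8 and 11 in NICD4, beside 34.6% rising and 40.7% falling of all genes in NICD1, 28.6% and 31.1% in NICD2, 32.5% and 36.8% in NICD3, and 35.7% and 45.2% in NICD4. SLBP, the stem-loop binding protein, averaged 76.8 ± 5.0, 100 ± 13, 86.5 ± 6.9 and 63.1 ± 9.7 CPM in NICD1 to NICD4, against 130 ± 9.5 CPM in EV (SD, n = 3 each). It fell in all 4 groups (-0.76, -0.38, -0.59 and -1.05, SE 0.12, adjusted p at most 0.011 in limma). Members of this list did not move together. LSM10, a protein of the U7 particle that cuts histone mRNA, rose by 1.02 to 1.22, and LSM11 of the same particle passed in no group. SYMPK (symplekin), a scaffold of the cleavage complex, rose by 0.54 to 1.68. TUT4, which adds uridines to histone mRNA in decay, fell, with changes of -2.77, -1.65, -2.29 and -3.08, and ERI1, the nuclease that trims the stem-loop end, by -0.46, -0.25, -0.43 and -0.68.

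Genes of histone variants outside the member rule moved in both directions. Of 11 tested, 5 rose and 1 fell in NICD1, 2 and 1 in NICD2, 7 and 1 in NICD3, and 5 and 5 in NICD4, and of 25 histone chaperones, 7 rose and 11 fell in NICD1, 3 and 7 in NICD2, 8 and 8 in NICD3, and 8 and 13 in NICD4. The shares of all genes were 34.6% rising and 40.7% falling in NICD1, 28.6% and 31.1% in NICD2, 32.5% and 36.8% in NICD3, and 35.7% and 45.2% in NICD4. H2AX, the variant phosphorylated at DNA breaks, averaged 376 ± 51, 199 ± 31, 402 ± 64 and 531 ± 77 CPM in NICD1 to NICD4 and 158 ± 20 CPM in EV, and rose in all but NICD2 (1.25, 1.34 and 1.74, SE 0.15). H1-10, a replication-independent linker histone, rose in all 4 (1.48, 0.58, 1.05 and 1.45). H3-3A, which encodes H3.3, fell in all 4 (-0.95, -0.66, -0.75 and -1.30). Among the chaperones, RBBP4 (-4.06, -2.50, -3.18 and -3.93) and DNAJC9 (-2.47, -1.16, -1.56 and -3.44) had the largest falls, and ASF1A fell where ASF1B rose in NICD1, NICD3 and NICD4.

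S phase genes moved both ways. Of 33 tested, 7 rose and 16 fell in NICD1, 6 and 11 in NICD2, 9 and 9 in NICD3, and 7 and 21 in NICD4. CDT1, the replication licensing factor, rose by 1.14 to 1.80 and TK1, thymidine kinase, by 0.80 to 1.37, whereas GINS4 and RFC3 fell in all 4. Of 20 genes of G2 and mitosis, 4 rose and 12 fell in NICD1, 4 and 8 in NICD2, 6 and 9 in NICD3, and 5 and 13 in NICD4. Both lists stand beside 34.6% rising and 40.7% falling of all genes in NICD1, 28.6% and 31.1% in NICD2, 32.5% and 36.8% in NICD3, and 35.7% and 45.2% in NICD4. MKI67, a proliferation marker, rose by 0.72 to 1.15, and KIF20A, a mitotic kinesin, fell in all 4. The trends on GC content and length were not removed for these lists, and their part in these values was not tested.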

How the data were processed

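Polyadenylated RNA of 15 libraries had been prepared with the TruSeq v2 kit, per the labels' protocols, and the submitters' processing notes name TopHat2 2.0.6, HTSeq and GRCh37, while settings and the gene annotation are not given in the sources used here. The deposited values are log2 of the read count plus 1, per the file headers and the values themselves, with no scaling to depth. Undoing the logarithm gave whole numbers within 0.001 for 100% of values. Tests on a count model were not used because the deposited unit is log2, and limma-voom on the recovered reads was an alternative. The test took in 15122 genes, those that reached 0.548 CPM (10 reads in a library of median depth) in 3 or more libraries and 15 reads overall. Counts were TMM-scaled, 1 was added (0.0544 CPM), and a model with 1 mean per group was fitted in limma 3.58.1 with statmod 1.5.0 under R 4.3.3. Fold changes near that added 1 are understated.

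Symbols, sequences of promoters and exon annotation came from the reference tables (RefSeq GRCh38.p14 and GENCODE 29), and positions of genes are those of the deposited table. The members and gene lists were chosen with earlier results of these data known. All members could be named, with values in every library for the most abundant, the polyadenylated and the most changed ones, and genes of other lists were named for the largest changes or a role in histone supply.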

Additional observations from a re-analysis of the deposited data

How the results depend on the processing

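The 12 tested members in 4 groups gave 48 changes. Median-of-ratios scaling, 0.5 or 4 added before the logarithm and limma-voom left all of them on their side of the threshold. Leaving aside the removals on exon length, 11 of the 27 calls were kept in every fit that tested them. Of these, H2BC11 in NICD1, NICD2 and NICD4 and H1-4 in NICD1 were too low for a minimum of 2 CPM. Those calls were therefore not checked there. H2BC11 in NICD1 and NICD4 was also too low to be tested when only the groups compared were fitted. The replicate block also changed no call among the members (6, 5, 6 and 8 rises in NICD1 to NICD4). Replicate numbers did not pair the libraries throughout. Deviations of same-numbered libraries correlated between -0.43 and 0.36, and 6 of 15 libraries correlated best with their own number. For replicates 1 and 2 of NICD2, NICD3, NICD4 and EV, all these correlations were positive, from 0.14 to 0.36.

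With library totals, 3 members rose and 2 fell in NICD1, 2 rose in NICD3, and genes called higher were 3308, 2847 and 3014 in NICD1 to NICD3; H2BC12 reversed in NICD1 (-0.055). With every gene of at least 1 read, 2, 1, 1 and 2 members fell in NICD1 to NICD4, among them H2BC1. Of all 31352 genes in that fit, 8001, 5839, 7004 and 8860 fell. A minimum of 2 CPM left 6 members in the test, of which 3 rose in NICD2 and 4 in NICD4. Of all 12577 genes in that test, 3877 rose in NICD2 and 4706 in NICD4. Fitting only the groups compared, 2 members fell in NICD1, beside 6254 of all 14586 genes tested.

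With the GC trend removed, alone or with the replicate block, 5 members rose in NICD4 and H2BC12 reversed in NICD1 (-0.24) and NICD4 (-0.068). With the exon length trend removed, 1, 1 and 4 rose in NICD1, NICD3 and NICD4, beside 35.8%, 33.8% and 38.3% of all genes. In the same groups 3, 1 and 1 fell, beside 37.3%, 33.6% and 41.1%. Some changes turned sign and were called with or without the removal. They were H2BC5 (-0.018), H1-2 (-0.18) and H2BC12 (-0.62) in NICD1 and H2BC12 in NICD4 (-0.22). With both removed, 0, 2, 0 and 5 rose in NICD1 to NICD4 and 5, 2 and 3 fell in NICD1, NICD3 and NICD4. Changes that turned sign, by the same rule, were H1-4 in NICD3 (-0.72) and NICD4 (-0.26), H2AC20 in NICD1 (-0.53) and NICD4 (-0.78), H1-2 in NICD1 (-0.55) and NICD3 (-0.075), H3C4 in NICD1 to NICD4 (-1.22, -0.045, -0.42 and -0.79), and H2BC12 in NICD1 (-1.29), NICD3 (-0.51) and NICD4 (-1.21). Both removals on length were chosen after seeing the data, and the cause of these shifts was not tested.

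Leaving out a library in turn gave 0 to 2 falls among the members in NICD1 and 0 to 1 in NICD4, the calls at stake being those of H2AC25 and H2AC6. Genes called lower in NICD2 ranged from 2807 (without EV replicate 2; 2942 without EV replicate 3) to 5028, against 4696 with all libraries. H2BC11, H2BC4, H3C4 and H2AC11 had few reads and an SE of 0.25 to 0.34, so small changes were not detectable at this depth. Changes larger than the SE could also go uncalled. In NICD1 these were 0.47 ± 0.30 for H2AC11 (adjusted p = 0.16, limma) and 0.48 ± 0.25 for H3C4 (adjusted p = 0.091).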
